A study of Mus musculus with 12 samples.

Results

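The genes described here are 9 genes whose products release calcium into the cytosol of muscle cells and pump it back, out of 22342 protein-coding genes of the mouse. They were taken as a fixed list, with no threshold on any value: the calcium release channels Ryr1 and Ryr3, the voltage sensor subunits Cacna1s and Cacng1, the calcium pumps Atp2a1 and Atp2a2, the storage proteins Casq1 and Casq2, and the junction protein Trdn. The list was chosen with earlier results of these data known, so its counts beside the shares over all genes are a description. All 9 were found in the annotation and each had reads in at least 1 of the 2 libraries of every mark. They were read from 12 ChIP-seq libraries of C2C12, a mouse myoblast line of strain C3H, 1 library for each of 6 histone marks in myoblasts and in myotubes. The myoblasts were near confluence in 10% serum at passages 15 to 18, and the myotubes were taken about 5 days after serum was withdrawn and were freed of unfused cells with light trypsin. The labels name no transgene and no other treatment. C2C12 is a cell line, so both groups model muscle in culture, without nerve or fibre types.

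In skeletal muscle, an action potential reaches the transverse tubule, where the voltage sensor touches the ryanodine receptor of the sarcoplasmic reticulum and opens it. Calcium held by calsequestrin leaves the reticulum, the fibre contracts, and the SERCA pumps return the calcium. Of the marks, H3K4me3 lies at active promoters, H3K4me2 and H3K4me1 at promoters and enhancers, and H3K27ac at promoters and enhancers in use. H3K27me3 goes with Polycomb repression, and H3K36me3 is laid down along transcribed gene bodies.

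The members lie on 7 mouse chromosomes. In mm9 the release channels are Ryr1, at chr7:29788359-29910170, and Ryr3, at chr2:112471512-113057253. The voltage sensor subunits are Cacna1s, at chr1:137949327-138016399, and Cacng1, at chr11:107564532-107577836. The pumps are Atp2a1, at chr7:133589372-133606622, and Atp2a2, at chr5:122903531-122952183. The storage proteins are Casq1, at chr1:174140025-174150026, and Casq2, at chr3:101890338-101950437, and Trdn lies at chr10:32803289-33196515. Cacna1s, Casq2 and Trdn are on the plus strand and the other 6 on the minus strand. Their bodies differ in length from 10.0 kb, in Casq1, to 586 kb, in Ryr3.

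The sequence before the start sites separated Atp2a2 from the other members. The ratio of observed to expected CpG over 1000 bp was 1.04 at Atp2a2, higher than at 99.0% of all promoters, and 0.730 at Ryr3. At the other 7 it lay between 0.133, at Trdn, and 0.412, at Ryr1, against a median of 0.562 over the 22342 promoters. The E-box CANNTG, the core that MyoD and related factors bind, was present within 250 bases before to 50 after the start in 8 of 9 members and in 69.5% of all promoters. Its form CAGCTG was present in 4 of 9, namely Cacna1s, Cacng1, Atp2a1 and Casq1, and in 15.2% of all promoters. A MEF2 consensus was found in 1 member, Casq2, and in 3.03% of promoters, and no member held a CArG box, which 1.47% of promoters did. Both strands were searched, and the MEF2 and CArG consensus sequences are AT-rich and can overlap each other. These matches are letters in a window and say nothing about binding. The 250 bases before the most 5′ annotated start are printed for the 4 members in which H3K4me3, H3K4me2 and H3K27ac were all higher in myotubes, for Ryr1, the member without an E-box, and for Atp2a2, the CpG-rich one. They were read 5′ to 3′ on the strand of the gene from the mm9 genome, with E-boxes and the MEF2 match in capitals.
Cacna1s, chr1:137949077-137949326, plus strand: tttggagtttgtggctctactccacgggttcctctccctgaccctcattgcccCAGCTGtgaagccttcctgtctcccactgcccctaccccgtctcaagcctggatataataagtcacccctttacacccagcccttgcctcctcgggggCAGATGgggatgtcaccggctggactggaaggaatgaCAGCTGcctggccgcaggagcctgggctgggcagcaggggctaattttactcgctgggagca
Casq1, chr1:174150027-174150276, minus strand: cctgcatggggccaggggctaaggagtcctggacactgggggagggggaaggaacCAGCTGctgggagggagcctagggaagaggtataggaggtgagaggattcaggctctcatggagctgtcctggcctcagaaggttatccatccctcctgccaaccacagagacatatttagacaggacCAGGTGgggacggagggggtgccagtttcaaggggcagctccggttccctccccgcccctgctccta
Casq2, chr3:101890088-101890337, plus strand: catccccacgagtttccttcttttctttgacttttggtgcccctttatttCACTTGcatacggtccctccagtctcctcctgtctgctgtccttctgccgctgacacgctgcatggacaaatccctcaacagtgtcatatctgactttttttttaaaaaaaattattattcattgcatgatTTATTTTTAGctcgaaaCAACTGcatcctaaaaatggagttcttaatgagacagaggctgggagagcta
Trdn, chr10:32803039-32803288, plus strand: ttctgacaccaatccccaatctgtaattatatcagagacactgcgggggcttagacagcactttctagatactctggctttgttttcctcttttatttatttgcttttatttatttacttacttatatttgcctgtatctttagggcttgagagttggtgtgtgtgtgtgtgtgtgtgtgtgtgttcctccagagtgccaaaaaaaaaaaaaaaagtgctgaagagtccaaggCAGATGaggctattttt
Ryr1, chr7:29910171-29910420, minus strand: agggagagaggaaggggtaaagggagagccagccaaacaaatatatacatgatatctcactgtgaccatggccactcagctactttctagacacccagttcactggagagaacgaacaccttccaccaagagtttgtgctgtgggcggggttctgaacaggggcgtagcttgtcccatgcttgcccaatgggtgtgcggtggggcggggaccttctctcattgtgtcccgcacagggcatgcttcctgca
Atp2a2, chr5:122952184-122952433, minus strand: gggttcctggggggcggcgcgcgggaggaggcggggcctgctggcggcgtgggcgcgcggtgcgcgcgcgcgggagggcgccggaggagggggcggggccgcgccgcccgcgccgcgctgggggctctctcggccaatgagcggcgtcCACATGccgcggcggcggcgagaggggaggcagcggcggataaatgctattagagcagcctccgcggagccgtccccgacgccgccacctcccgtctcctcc

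The unit of every level is the number of uniquely aligned reads whose fragment midpoint fell in a region. It is given as a count or as the fold over the mean of the same library, which is a level per length. The length was not corrected for sequence to which reads cannot align uniquely, so orders between genes carry that limit. A promoter is the 1 kb either side of 1 TSS, and a gene body runs from the annotated start to the annotated end. Ratios are myotube over myoblast after scaling to the reads of each library, and a gene is called higher or lower where the ratio is at least 2 or at most 0.5 and its exact 95% counting interval leaves out 1. With 1 library per mark and cell type there is no replicate, so no p-value was computed, and each ratio compares a pair of libraries and not the conditions. The intervals cover counting error only. Each library pools many cells, so more cells with a mark and more of the mark per cell cannot be told apart. No input library was used here.

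The libraries held 1858771 to 7033100 reads in myoblasts and 3298694 to 6271899 in myotubes, which gives a genome mean of 0.727 to 2.75 reads per kb. The myoblast H3K27ac library was the smallest. The labelled cell types were looked at on genes that mark them. These genes too were listed with earlier results known, so this describes the libraries and is no independent check. All 6 myotube markers (Myog, Ckm, Acta1, Myh3, Tnnt3 and Tmem8c) were called higher in myotubes in promoter H3K4me3, from 2 to 13 reads in myoblasts to 44 to 215 in myotubes, and in H3K27ac, from 0 to 18 reads to 60 to 489. Of the 5 myoblast markers (Myod1, Myf5, Id1, Id3 and Ccnd1), 3 were called lower in H3K4me3 and 4 in H3K27ac, and they still held 19 to 90 H3K4me3 reads in myotubes. The 5 markers of other cell types (Alb, Cd3e, Neurod1, Sox2 and Nanog) had 0 to 11 promoter reads in H3K4me3 and 0 to 4 in H3K27ac in either cell type. Sox2 was marked in H3K4me2, with 72 reads in myoblasts and 36 in myotubes, 21.4 and 9.68-fold over the genome mean. Its H3K4me1 gave 39 and 18 reads, 7.70 and 3.67-fold. Alb, Cd3e, Neurod1 and Nanog had 0 to 5 reads in H3K4me2 and 0 to 8 in H3K4me1.

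Promoter H3K4me3 was higher in myotubes at 7 of the 9 members, all but Ryr3 and Atp2a2, and lower at none. Over all genes the same call was made at 2.18% for higher and 4.65% for lower. The median ratio of the members was 4.82, against 0.841 over the genes with reads. Promoter H3K27ac was higher at 6 of 9, where 2.56% of all genes were called, and lower at none, where 21.6% were. Its median ratio was 17.9, or 5.11 with the members that had 0 myoblast reads set at the bound that 3 reads give. Over the genes with reads the median was 0.656. The same 6 members, Ryr1, Cacna1s, Atp2a1, Casq1, Casq2 and Trdn, were higher in both marks, as were 1.18% of all genes.

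**Figure D1:**
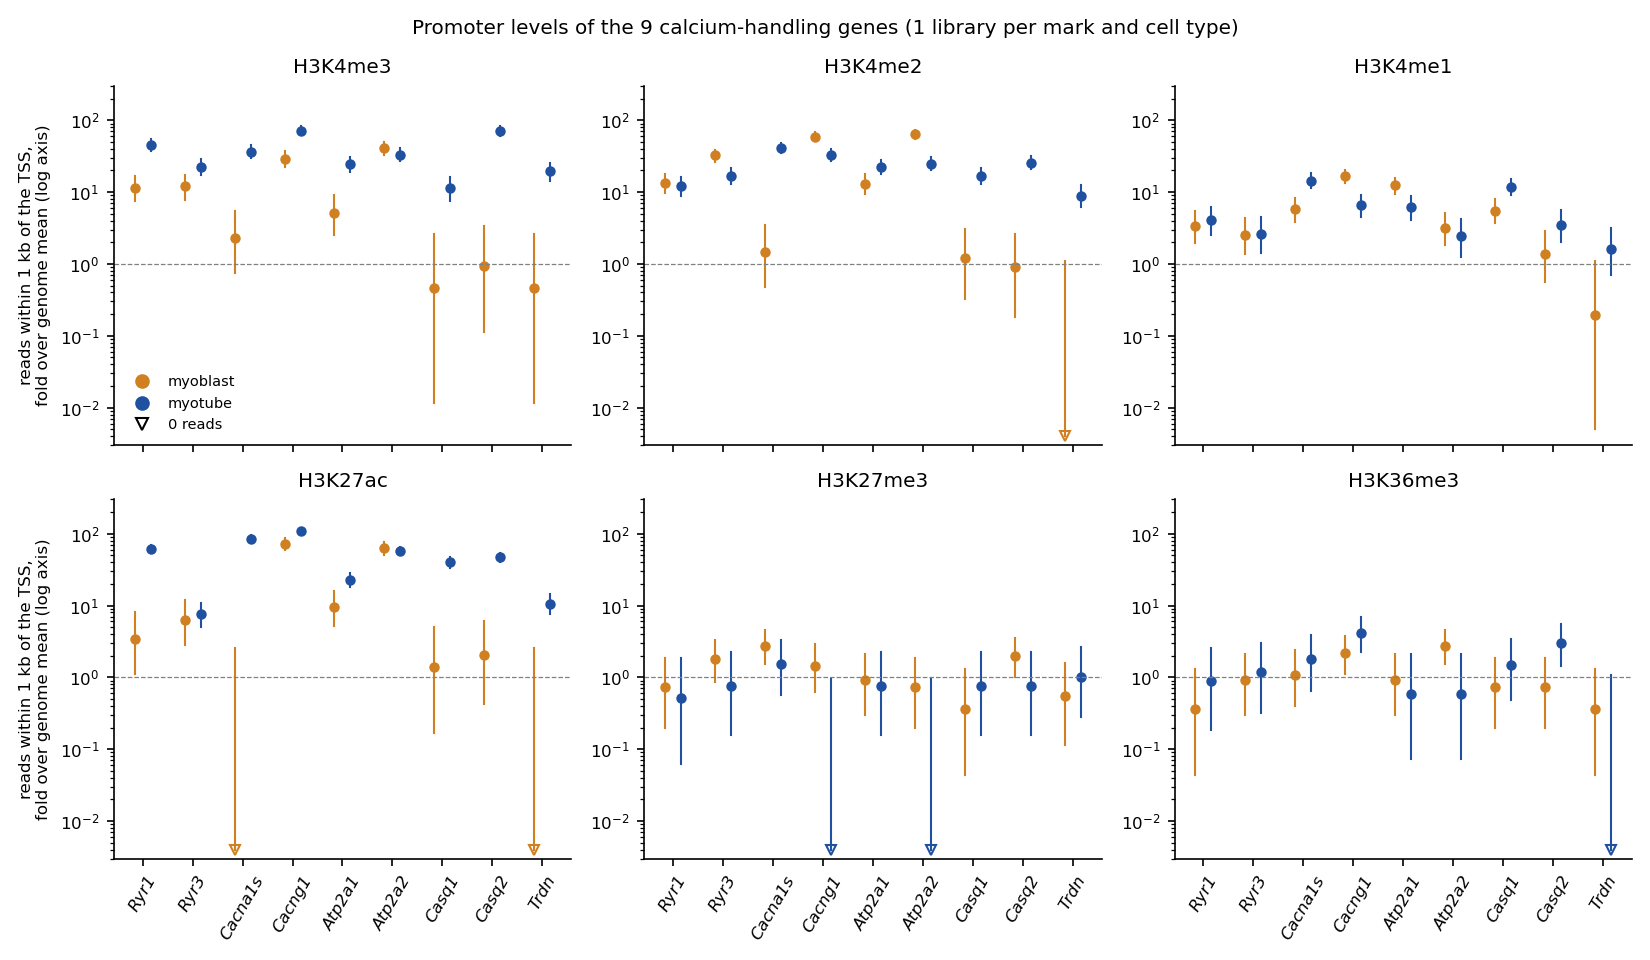
Level of each mark within 1 kb of the TSS of the 9 members, as fold over the genome mean on a log axis, in myoblasts (orange) and myotubes (blue), with exact 95% Poisson intervals; open triangles mark 0 reads. In H3K4me3 and H3K27ac the myoblast levels run from 0 to 72.9-fold and the myotube levels from 7.58 to 109-fold, and Atp2a2 is at a like level in both.

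The release channels differed from each other. Ryr1, the ryanodine receptor of skeletal muscle, had 25 H3K4me3 reads at its promoter in myoblasts and 118 in myotubes, a ratio of 3.97 (2.56 to 6.38). Its H3K27ac went from 5 to 227 reads, a ratio of 17.9 (7.54 to 55.5). The signal of both marks in myotubes stood close to the start, with 203 of the H3K27ac reads in the first 1 kb of the gene. H3K4me2 did not follow, with 45 reads in both libraries, a ratio of 0.903 that became 1.46 when the libraries were scaled by the promoters that held an H3K4me3 peak in myoblasts and in myotubes (shared promoters).

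Ryr3 encodes a second ryanodine receptor, best known from developing muscle and from brain. Its promoter had 26 and 58 H3K4me3 reads, a ratio of 1.88 (1.16 to 3.11) that missed the 2-fold limit and passed it, at 2.17, with the scaling by shared promoters. H3K27ac gave 9 and 28 reads, a ratio of 1.22 (0.561 to 2.95). H3K4me2 gave 109 and 63 reads, a ratio of 0.522 (0.376 to 0.718), where the median over the genes with reads was 0.648. The promoter was marked in both cell types, with H3K27ac at 6.19-fold over the genome mean in myoblasts and 7.58-fold in myotubes, the lowest myotube level of the 9. A start 187 kb inside the gene had 2 and 7 H3K4me3 reads.

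The voltage sensor genes also stood apart from each other. Cacna1s, the pore-forming and voltage-sensing subunit of the dihydropyridine receptor, had 0 H3K27ac reads at its promoter in myoblasts and 313 in myotubes, at least 41.0-fold higher with the zero set at 3 reads. The lower limit of the counting interval was 33.2. Around another annotated start 151 bp upstream the counts were 1 and 310. H3K4me3 went from 5 to 94 reads, a ratio of 15.8 (6.54 to 49.8), and H3K4me2 from 5 to 153, a ratio of 27.6 (11.6 to 86.3). H3K4me1 was already at 5.72-fold over the genome mean in myoblasts, with 29 reads, and rose to 71 reads, a ratio of 2.53 (1.62 to 4.04).

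Cacng1, the gamma subunit of the same channel, was marked before differentiation. Its promoter held 106 H3K27ac reads in myoblasts and 404 in myotubes, the highest level of the 9 in either cell type, 72.9-fold and 109-fold over the genome mean. The ratio, with an interval of 1.21 to 1.88, was not called, while with scaling by shared promoters it was 2.67 and called. H3K4me3 rose from 63 to 184 reads, a ratio of 2.46 (1.84 to 3.33), and the rise lay downstream of the start, with 44 and 168 reads in the first 1 kb and 19 and 15 in the 1 kb before it. H3K4me2 gave 198 and 123 reads (0.561, 0.444 to 0.706), an interval that holds the median of 0.648 over the genes with reads. H3K4me1 was called lower, from 84 to 32 reads (0.393, 0.253 to 0.598).

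The pumps also contrasted with each other. Atp2a1, the SERCA pump of fast fibres, had 11 and 63 H3K4me3 reads, a ratio of 4.82 (2.52 to 10.1), and 14 and 84 H3K27ac reads, a ratio of 2.36 (1.33 to 4.50). H3K4me2, with 44 and 84 reads, gave 1.72 (1.18 to 2.54) and fell to 0.987 when scaled by windows outside peaks. H3K4me1 was called lower, from 63 to 30 reads (0.492, 0.307 to 0.771).

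Atp2a2, the SERCA pump that non-muscle cells also express, was not called higher at its promoter. It had 89 and 86 H3K4me3 reads (0.813, 0.597 to 1.11) and 92 and 213 H3K27ac reads (0.911, 0.710 to 1.18), which became 1.62 with scaling by shared promoters. Its H3K4me2 was called lower, from 213 to 93 reads, a ratio of 0.394 (0.306 to 0.505), where 22.8% of all genes were called lower in that mark, and the ratio turned to 1.15 when the 2 kb downstream of the start were counted in place of the 1 kb either side. In myoblasts Atp2a2 had the highest promoter H3K4me3 of the 9, 41.0-fold (33.0 to 50.5), followed by Cacng1 with 29.0-fold (22.3 to 37.2).

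The calsequestrins and triadin had 0 to 4 promoter reads of H3K4me3, H3K4me2 and H3K27ac in myoblasts. Casq2, the calsequestrin of heart and slow fibres, had 2 H3K4me3 reads in myoblasts and 183 in myotubes, a ratio of 77.0 (21.0 to 640) that was the highest finite ratio of the 9 in this mark. Its H3K4me2 went from 3 to 96 reads (28.9, 9.59 to 142) and its H3K27ac from 3 to 174 (22.8, 7.68 to 112). Casq1, the calsequestrin of fast fibres, had 1 and 29 H3K4me3 reads (24.4, 4.04 to 996), 4 and 63 H3K4me2 reads (14.2, 5.29 to 53.8) and 2 and 147 H3K27ac reads (28.9, 7.86 to 241). Trdn, triadin, which ties calsequestrin to the ryanodine receptor, had 1 and 50 H3K4me3 reads (42.1, 7.21 to 1694). Its H3K4me2 went from 0 to 33 reads, at least 9.93-fold higher with the zero set at 3 reads, and its H3K27ac from 0 to 39, at least 5.11-fold higher. The lower limits of the counting intervals were smaller, 7.63 and 3.97. The wide intervals come from the 0 to 4 myoblast reads at these promoters.

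**Figure D2:**
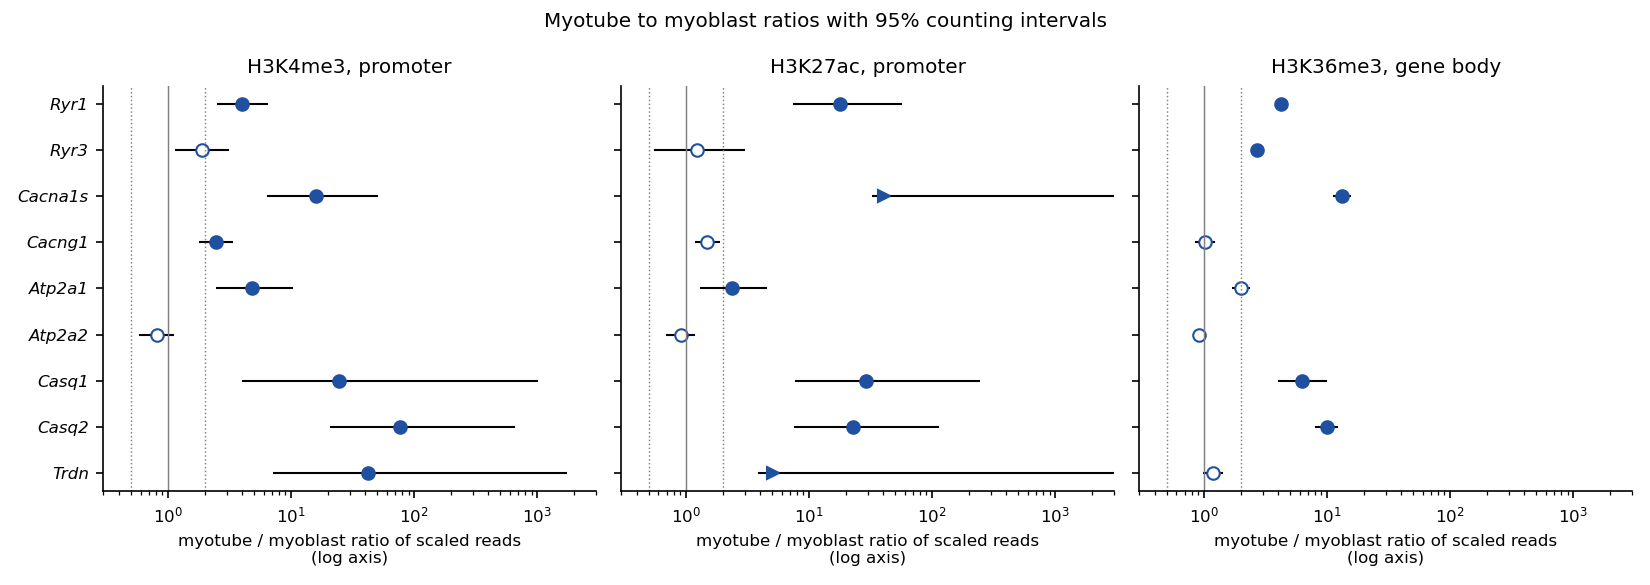
Myotube over myoblast ratio of scaled reads on a log axis, with 95% counting intervals, for promoter H3K4me3, promoter H3K27ac and gene body H3K36me3; filled points were called, dotted lines mark 0.5 and 2, and triangles are bounds where myoblasts had 0 reads, with no upper limit. Casq2 reaches 77.0 in H3K4me3, Cacna1s at least 41.0 in H3K27ac and 13.2 in H3K36me3, and Atp2a2 lies at 0.813, 0.911 and 0.909.

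In myotubes the order of promoter H3K4me3 was Cacng1 with 71.3-fold over the genome mean, Casq2 with 71.0, Ryr1 with 45.7, Cacna1s with 36.4, Atp2a2 with 33.3, Atp2a1 with 24.4, Ryr3 with 22.5, Trdn with 19.4 and Casq1 with 11.2. The counting intervals of neighbours in this order overlapped except between Casq2 and Ryr1. For H3K27ac the order was Cacng1, Cacna1s, Ryr1, Atp2a2, Casq2, Casq1, Atp2a1, Trdn and Ryr3. The neighbours from Ryr1 to Casq1 overlapped, at 61.4 to 39.8-fold, and so did Trdn and Ryr3, at 10.5 and 7.58-fold. Cacng1 and Cacna1s, at 109 and 84.7-fold, did not.

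H3K4me2 at the promoter was called higher at 4 of 9 members, Cacna1s, Casq1, Casq2 and Trdn, where 1.90% of all genes were, and lower at Atp2a2 alone. These 4 were higher in H3K4me3, H3K4me2 and H3K27ac together, as were 0.662% of all genes. H3K4me1 was higher at 3 of 9 (Cacna1s, Casq1 and Trdn; 5.26% of all genes) and lower at 2 (Cacng1 and Atp2a1; 10.9%). The 3 fell to 1 with reads not extended (5.54% of all genes) or with scaling by windows outside peaks (2.58%). With 500 bp either side of the TSS they fell to 0 (3.01%). The 2 fell to 1 with the 2 kb downstream of the TSS (10.3%) or with thinned libraries (10.6%). Casq1 had 28 and 58 H3K4me1 reads (2.14, 1.34 to 3.49), and so held this mark at 5.53-fold in myoblasts with H3K4me3 at 0.461-fold. H3K27me3 gave 2 to 15 promoter reads in myoblasts and 0 to 6 in myotubes. The highest level was 2.73-fold (1.53 to 4.51), from 15 reads at Cacna1s in myoblasts, above that of 87.8% of all genes, and those of Casq2 and Ryr3 were above 81.8% and 79.5%. The mark was called higher at none (0.895% of all genes) and lower at 1, Cacng1, from 8 to 0 reads (4.13% of all genes), a ratio of at most 0.525 with the zero set at 3 reads and 0.820 as the upper limit of the interval. Promoter H3K36me3 was higher at Casq2, from 4 to 10 reads (2.20% of all genes), and lower at Atp2a2, from 15 to 2 (1.82%).

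The deposited MACS peak lists, called within each library by the authors, were counted at the promoters too. In myotubes all 9 members had an H3K4me3 peak and all 9 an H3K27ac peak at the promoter. In myoblasts 4 had an H3K4me3 peak, namely Ryr1, Ryr3, Cacng1 and Atp2a2. These 4 of 9 had the peak in both cell types, as did 10431 of all 22342 promoters. Shares over all promoters were not computed for the single lists, so the other peak counts are no trait of the members. The myoblast lists of H3K27ac and H3K27me3 are in doubt. In the regions of the H3K27me3 sample's list, H3K27ac reads stood at 36.4 times the genome mean and H3K27me3 reads at 0.804 times, and in those of the H3K27ac sample's list at 0.588 and 6.76 times. As deposited, 1 member (Ryr3) had a myoblast H3K27ac peak at the promoter and 4 (Ryr3, Cacng1, Atp2a1 and Atp2a2) an H3K27me3 peak, and with the lists exchanged these numbers were 4 and 1. Read counts do not use these lists.

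The spread of the promoter marks into the gene changed at Atp2a2, whose promoter H3K4me3 was not called. H3K4me3 in the window from 1 to 2 kb after the start rose from 32 to 109 reads, a ratio of 2.87 (1.92 to 4.39), and in the next from 5 to 36, a ratio of 6.06 (2.37 to 19.8). H3K4me2 fell in the 1 kb before the start, from 164 to 62 reads (0.341, 0.251 to 0.460), and rose 3 to 4 kb after it, from 6 to 65 (9.78, 4.26 to 27.6). In myotubes the H3K4me2 level stayed between 15.1 and 37.7-fold from 1 to 6 kb after the start. These windows were chosen after their counts were seen.

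**Figure D3:**
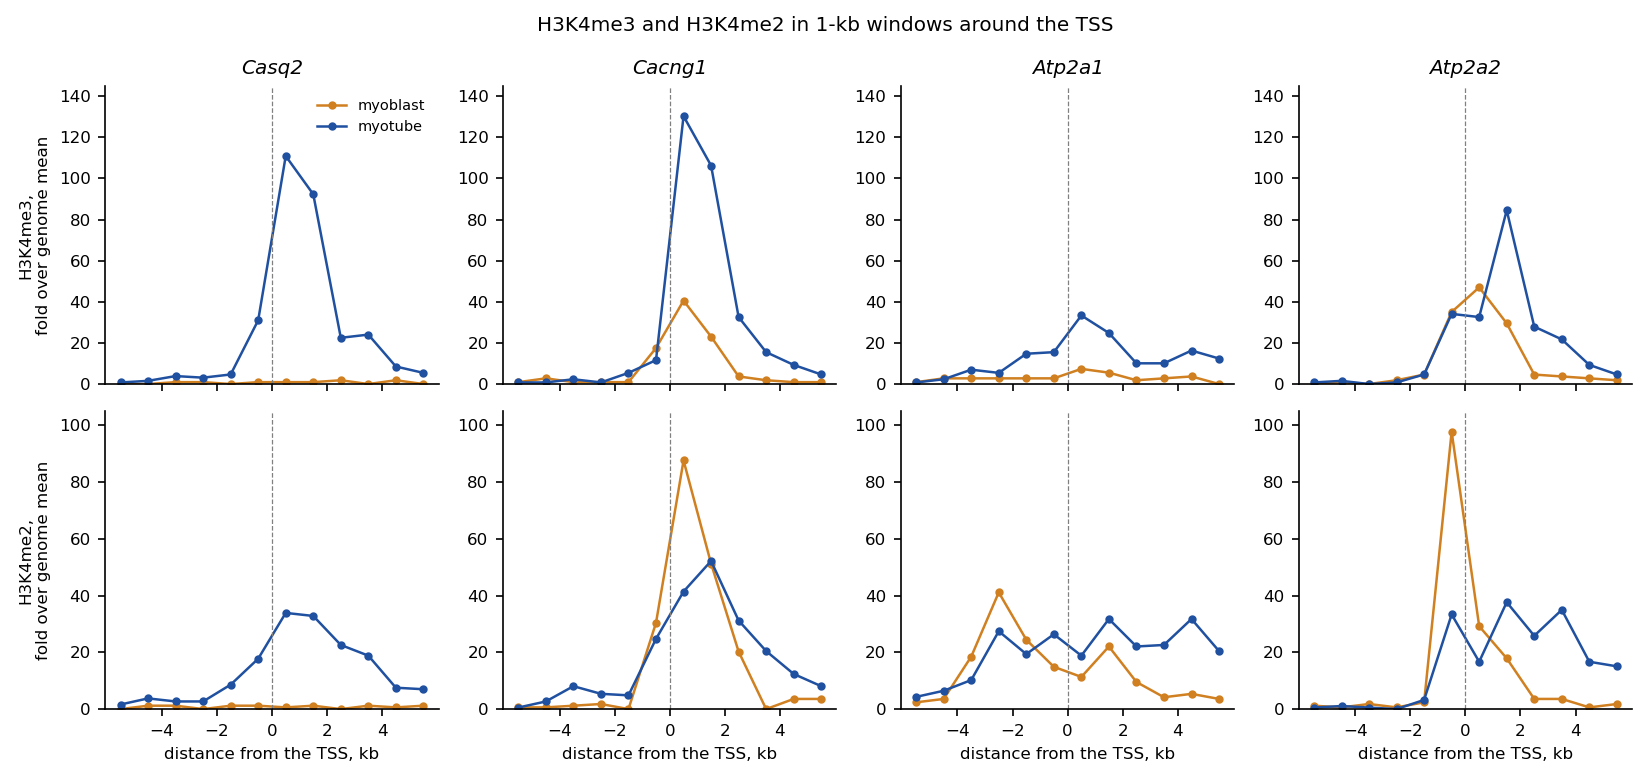
H3K4me3 (top) and H3K4me2 (bottom) in 1-kb windows up to 6 kb either side of the TSS of Casq2, Cacng1, Atp2a1 and Atp2a2, as fold over the genome mean, in myoblasts (orange) and myotubes (blue). At Atp2a2 the H3K4me2 window before the start goes from 97.7 to 33.4-fold and the H3K4me3 window centred 1.5 kb after it from 29.5 to 84.6-fold.

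At Atp2a1 the strongest H3K27ac of the locus stood upstream of the start in both cell types. The window centred 2.5 kb upstream held 49 reads in myoblasts, 67.4-fold over the genome mean, and 82 in myotubes, 44.4-fold, a ratio of 0.658 (0.457 to 0.958) that turned to 1.17 when scaled by shared promoters. H3K4me1 in myoblasts was highest in the adjacent window, with 93 reads centred 1.5 kb upstream. Inside the gene H3K27ac rose from 1 to 49 reads in the window centred 3.5 kb after the start, a ratio of 19.3 (3.30 to 777), and from 1 to 51 in the next. The upstream windows lie before the end of the neighbouring gene Sh2b1, which is 3.89 kb from the start. These windows too were chosen after their counts were seen.

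Away from promoters, 31 myotube H3K27ac peaks lay inside the members over 2 kb from the annotated starts of the same gene. Of these, 14 were in Ryr3, 5 in Casq2 and 4 in Cacna1s. H3K27ac reads were called higher in myotubes at 16 of the 31, against 27.4% of 19005 peaks inside genes. The 19005 were held to a wider rule, over 2 kb from every protein-coding start. The myotube H3K27ac reads chose these peaks, so the shares are a description. H3K4me1 in myoblasts was over the genome mean at 22 of the 31, against 91.0% of the same peaks. Its 95% counting interval was clear of the mean at 15 of the 31, against 74.0%. The 31 were 267 to 4030 bp long, short peaks hold few reads, and lengths were not matched to the 19005. The fold was over 1 at 4 of 4 peaks in Cacna1s, 5 of 5 in Casq2 and 9 of 14 in Ryr3, and the interval was clear of 1 at 4, 3 and 4 of them.

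**Figure D4:**
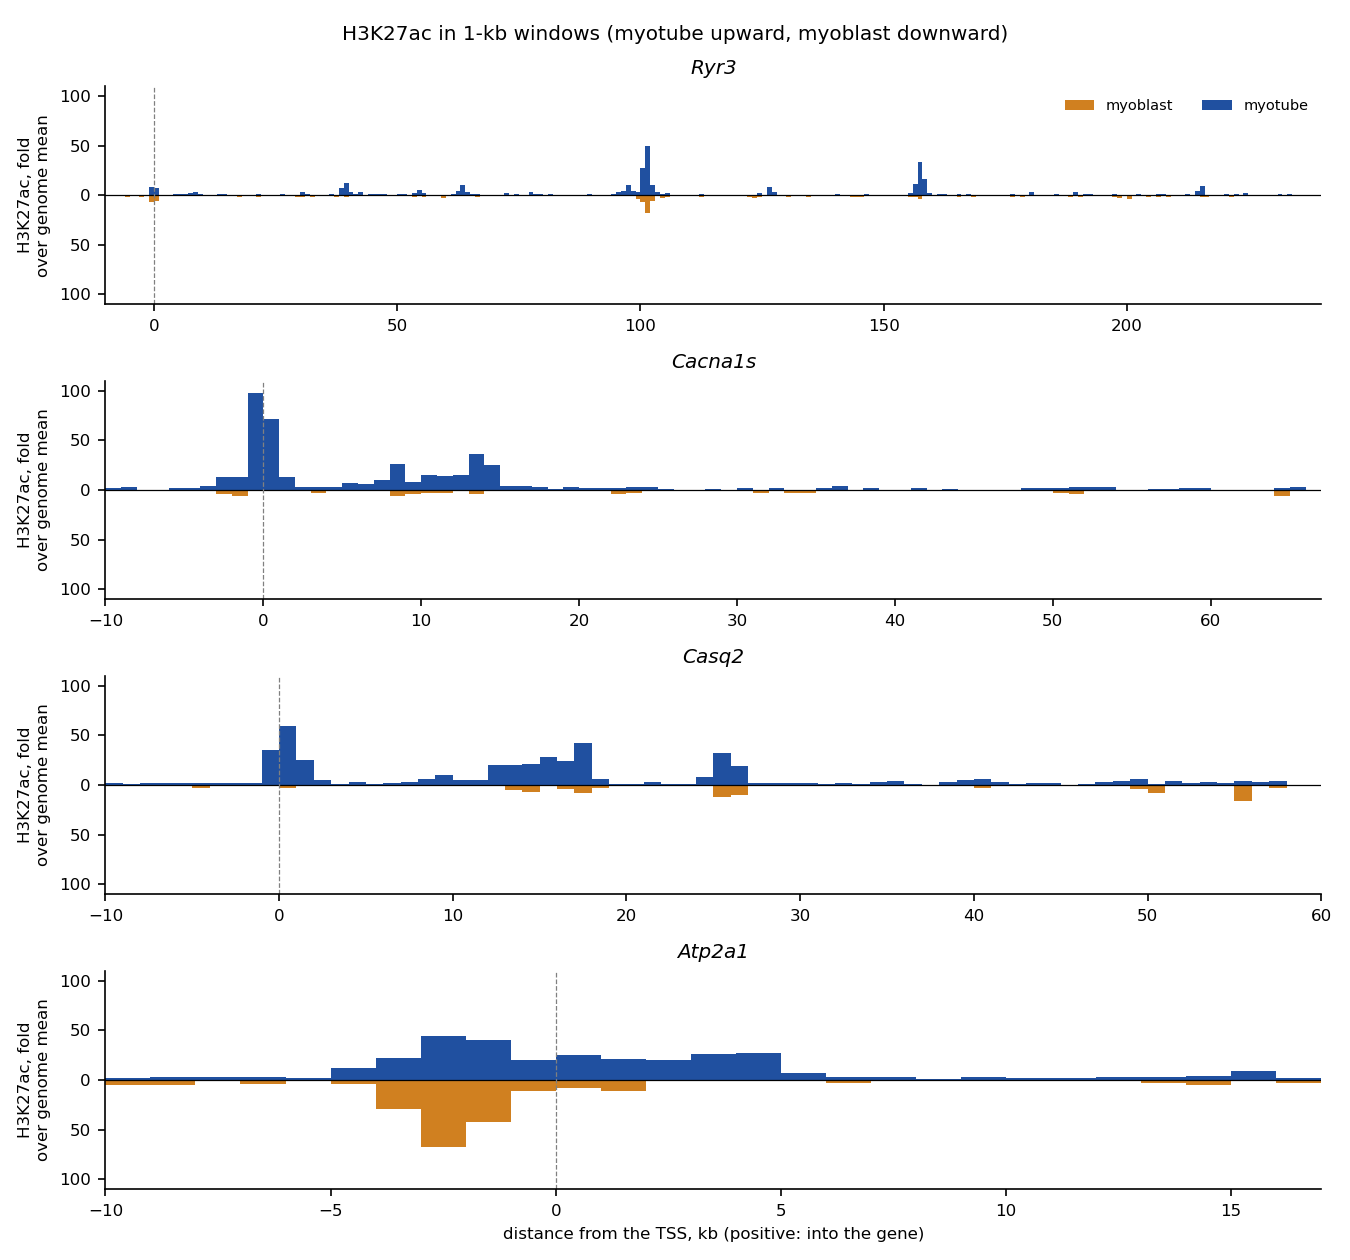
H3K27ac in 1-kb windows along Ryr3, Cacna1s, Casq2 and Atp2a1, as fold over the genome mean, upward in myotubes (blue) and downward in myoblasts (orange), against distance from the TSS in kb. Ryr3 has its highest myotube window 101.5 kb inside the gene, at 49.8-fold, above its own promoter, and Atp2a1 is highest 2.5 kb upstream in both cell types.

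The highest H3K27ac of Ryr3 in both cell types was in an intron 101.5 kb after the start, and not at the promoter. The peak at chr2:112954408-112956196 there held 17 reads in myoblasts and 110 in myotubes, a ratio of 2.55 (1.52 to 4.53), with 27 and 50 H3K4me1 reads. A second intronic peak, at chr2:112898314-112900787, 158 kb after the start, went from 4 to 109 reads (10.7, 4.07 to 40.0), while its H3K4me1 gave 39 and 49 reads (1.30, 0.835 to 2.03). H3K4me1 at this peak stood at 6.23-fold over the genome mean in myoblasts, where H3K27ac stood at 2.23-fold.

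In Casq2 the widest peak, at chr3:101904800-101908829, 16.3 kb after the start, covers 4030 bp of an intron and went from 14 to 220 H3K27ac reads (6.18, 3.61 to 11.5). Its H3K4me1 gave 123 and 172 reads, 12.1-fold over the genome mean in myoblasts, a stage at which the Casq2 promoter had 2 H3K4me3 reads. A farther intronic peak, at chr3:101915505-101917080, had 14 and 90 H3K27ac reads (2.53, 1.43 to 4.81). In Cacna1s 4 peaks followed each other between 8.33 and 13.8 kb after the start. The last and strongest, at chr1:137962021-137964607, went from 5 to 131 reads (10.3, 4.31 to 32.3), with H3K4me1 at 63 and 104 reads, 9.62-fold over the genome mean in myoblasts. At the 4 peaks of Cacna1s myoblast H3K27ac lay between 0 and 3.67-fold.

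Over the gene bodies, H3K36me3 was called higher in myotubes at 5 of 9 members, Ryr1, Ryr3, Cacna1s, Casq1 and Casq2, and lower at none, against 5.67% and 4.82% of all genes. The median ratio of the members was 2.69, against 0.9996 over the genes with reads. Cacna1s rose most, from 205 to 1655 reads, a ratio of 13.2 (11.4 to 15.3), which took it from 1.11-fold to 14.6-fold over the genome mean. Casq2 went from 123 to 749 reads (9.93, 8.20 to 12.1), Casq1 from 29 to 111 (6.24, 4.12 to 9.75) and Ryr1 from 1192 to 3100 (4.24, 3.97 to 4.54). In myotubes the level of Ryr1, 15.1-fold, was higher than that of 98.4% of all genes, and in myoblasts, at 3.56-fold, than that of 69.9%. The lincRNA Gm16799 overlaps 9532 bp of the Ryr1 body on the other strand.

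Cacng1 and Atp2a2 carried H3K36me3 in both cell types, as they did the promoter marks, and at a like level. Ryr1, at 3.56 and 15.1-fold, and Atp2a1 also carried it in both, with the higher level in myotubes. Cacng1 had 10.4-fold in myoblasts and 10.7-fold in myotubes, a ratio of 1.03 (0.871 to 1.21). Atp2a2 had 10.5-fold and 9.51-fold, a ratio of 0.909 (0.832 to 0.993) that became 1.08 when scaled by windows outside peaks. Atp2a1 rose from 6.81-fold to 13.6-fold, a ratio of 1.99 (1.71 to 2.31), just under the 2-fold limit. Its last 3.39 kb overlap Rabep2 on the other strand, where the level went from 13.7 to 28.9-fold, a ratio of 2.10. The remaining 13.9 kb went from 5.12 to 9.80-fold, a ratio of 1.92 (1.58 to 2.33).

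Trdn stood apart in this mark. Its body held 350 H3K36me3 reads in myoblasts and 256 in myotubes, 0.324-fold and 0.386-fold over the genome mean, a ratio of 1.19 (1.01 to 1.41), although its promoter was higher in H3K4me3, H3K4me2 and H3K27ac. Of 10 equal parts of the 393 kb of Trdn, none exceeded 0.543-fold in either cell type. Ryr3, the other gene of this size, rose from 0.547 to 1.47-fold (2.69, 2.47 to 2.93), and its level in myotubes was highest in part 8 of 10, at 2.36-fold. Its overlap with Aven at the 3′ end covers 3.22 kb, and the rest of the body gave 2.71. The order of the body levels in myotubes was Ryr1, Cacna1s, Atp2a1, Cacng1, Atp2a2, Casq2, Casq1, Ryr3 and Trdn. Neighbours differed beyond their counting intervals between Atp2a1 and Cacng1, between Atp2a2 and Casq2, and from Casq1 on. With the part that overlaps Rabep2 left out, Atp2a1 stood at 9.80-fold, inside the interval of Cacng1 (9.35 to 12.1).

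**Figure D5:**
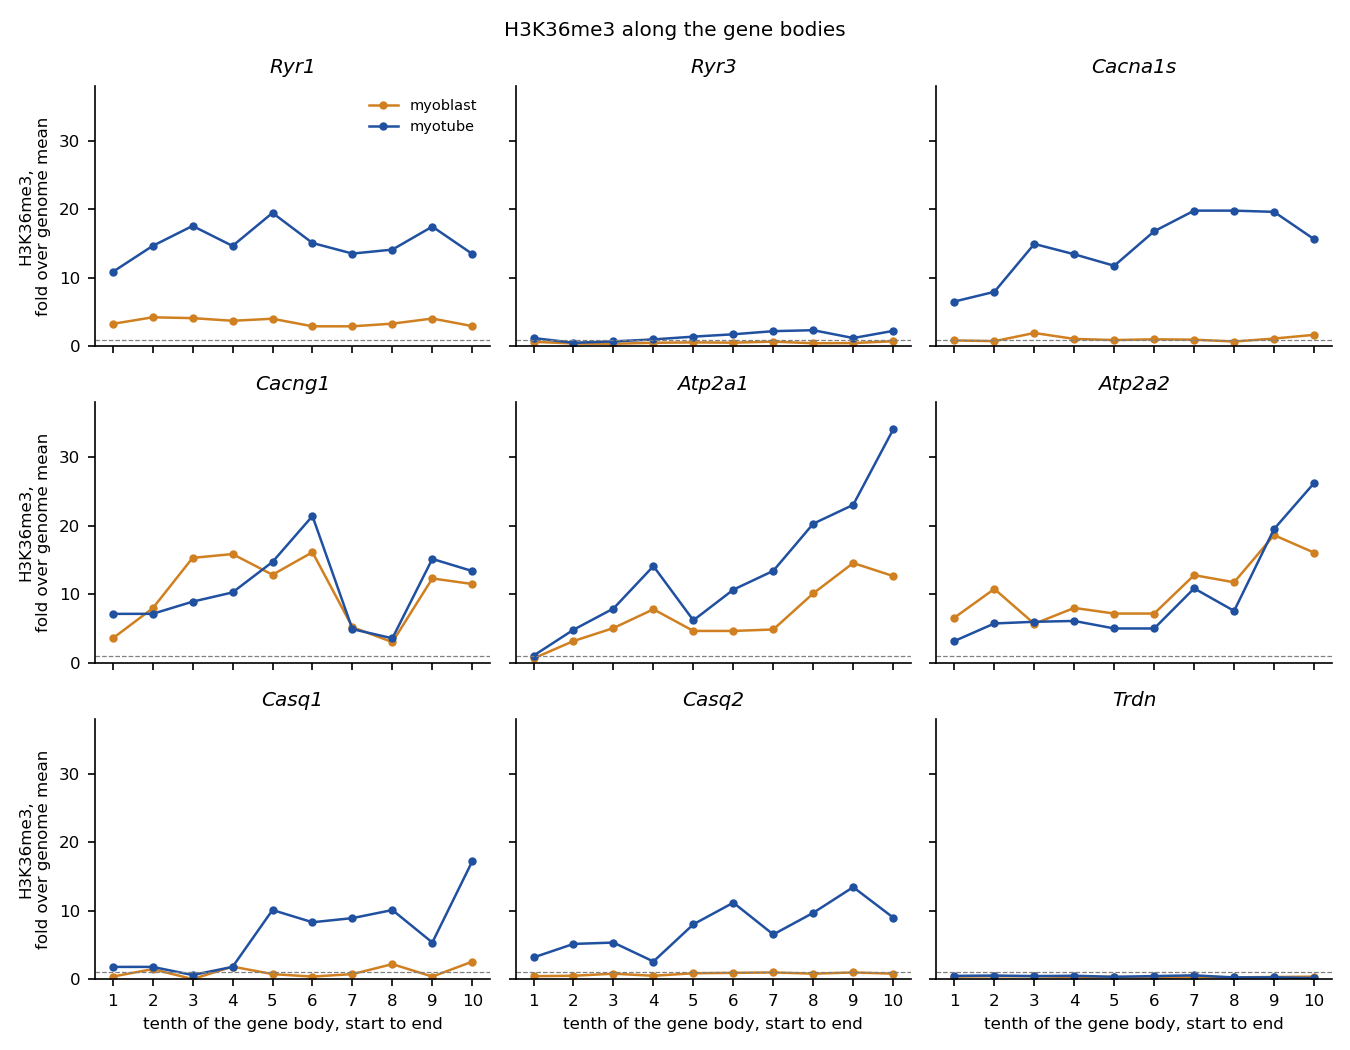
H3K36me3 in 10 equal parts of each gene body from start to end, as fold over the genome mean, in myoblasts (orange) and myotubes (blue). Cacna1s goes from at most 1.95-fold to at most 19.8-fold and Trdn is at most at 0.543-fold. Ryr1, Cacng1, Atp2a1 and Atp2a2 are marked in both cell types, Cacng1 and Atp2a2 at a like level over the whole body.

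The gene bodies include the 1 kb of each promoter window that lies after the TSS. Over them H3K4me3 was called higher at 6 members (2.62% of all genes), H3K4me2 at 7 (7.50%), H3K4me1 at 5 (8.29%) and H3K27ac at 7 (4.91%). These 4 marks were called lower at none of the members (3.71%, 13.4%, 8.08% and 15.3% of all genes). With scaling by windows outside peaks, H3K4me2 was called at 3 members, against 1.48% of all genes, and Ryr1 and Cacng1 turned to 0.749 and 0.607. Body H3K27ac was not called at Cacng1 (1.61) and Atp2a2 (1.69). In H3K27me3, 1 member, Atp2a2, was called higher, from 97 to 163 reads (2.35, 1.82 to 3.06), where 6.23% of all genes were called higher and 1.23% lower. This call was lost with scaling by shared promoters. For bodies that scaling used the body reads of the genes with those promoters, and moved log2 H3K27me3 ratios by -0.46. At promoters, where it used promoter reads, it moved them by 0.52. The body of Cacna1s had H3K27me3 above the genome mean in both cell types, 2.86-fold and 2.97-fold, a level above those of 91.8% and 93.7% of all genes, beside its H3K36me3 of 14.6-fold in myotubes.

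A list of 32 other genes of excitation-contraction coupling and calcium handling, also chosen with earlier results known, was counted in the same way. Promoter H3K4me3 was called higher at 6 of 32 (2.18% of all genes) and lower at none (4.65%), and body H3K36me3 higher at 7 (5.67%) and lower at none (4.82%). Promoter H3K27ac was called higher at 6 (2.56%) and lower at 5 (21.6%). With scaling by shared promoters the counts were 9 (8.15%) and 1 (6.51%), and with windows outside peaks 5 (2.045%) and 6 (26.3%). The genes named next are those called with scaling by total reads. The 6 were Srl, sarcalumenin, a calcium-binding protein of the reticulum, with 7 and 255 reads (14.3), Hrc, the histidine-rich calcium-binding protein, with 3 and 99 (13.0), Orai1 and Stim1, the channel and sensor of store-operated calcium entry, with ratios of 3.25 and 2.95, and Jsrp1 and Jph2, proteins of the junctional membrane, with 2.44 and 2.04. The 5 were Itpr3 and Itpr2, inositol trisphosphate receptors, with 0.228 and 0.300, Cacna2d1, an auxiliary subunit of the voltage sensor, with 0.356, Homer1, a scaffold protein, with 0.412, and Fkbp1a, which binds ryanodine receptors, with 0.445. The median H3K27ac ratio of the 32 was 1.09, against 0.656 over the genes with reads.

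The genes whose 12 promoter values were nearest to the medians of the 9 members, by Euclidean distance over log2 values of depth-scaled reads with 1 read added, were Frmd4b, Sgca, Lmo7, 9330159F19Rik and Ank3, at distances of 1.88 to 2.37. Sgca encodes alpha-sarcoglycan, a membrane protein of muscle. It had 6 and 55 H3K4me3 reads and 5 and 99 H3K27ac reads. Among the members Ryr1 was nearest, at 1.93, and Trdn farthest, at 8.29. Of all genes, 56.3% lay closer to the medians than Trdn, 48.5% than Cacng1 and 41.2% than Atp2a2. For each other member it was at most 16.6%. The medians, and the genes near them, thus do not stand for every member.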

How the data were processed

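Histone marks were measured by ChIP-seq in C2C12 myoblasts and myotubes, 1 library per mark and cell type. The authors aligned reads of 34 bp to mm9 with Mosaik 1.0.1384 and kept unique alignments, and the deposited read files hold them as counts of 1 per line. What was merged per file and whether duplicates were removed is not given in the sources used here. Between 0.417% and 3.14% of the reads of a library shared position and strand. The authors called peaks with MACS, and the deposited lists give a score per peak. The settings are not given in the sources used here.

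Reads on chromosomes 1 to 19 and X were extended to 150 bp, and midpoints were counted over the gene body and 1 kb either side of 1 TSS. Of the starts of protein-coding transcripts in GENCODE M1, the one with most H3K4me3 reads, myoblast and myotube together, was taken. Ratios were scaled by total reads and carry an exact conditional binomial interval at 95%, and levels an exact Poisson interval. Calls need 2-fold and an interval that leaves out 1. A count of 0 was set at 3 reads for bounds. The background is the same call over 22342 genes.

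The alternatives were no extension of reads or 250 bp, at most 1 read for each position and strand, windows of 500 bp either side or 2 kb downstream, the TSS of the longest transcript, bodies without the first 1 kb, libraries thinned to the shallower one, a limit of 1.5-fold, the fold without the interval, scaling by 10 kb windows outside peaks, and scaling by the 10431 promoters that held an H3K4me3 peak in myoblasts and in myotubes. Against scaling by total reads, log2 promoter ratios of all genes moved with the windows by -0.80 for H3K4me2, -0.31 for H3K4me1, -0.21 for H3K27ac and 0.24 for H3K36me3, and by under 0.1 for the other marks. With the shared promoters they moved by 0.21 for H3K4me3, 0.69 for H3K4me2, 0.83 for H3K27ac, 0.52 for H3K27me3 and 0.29 for H3K36me3. For gene bodies the shared-promoter factor came from the body reads of the same genes. There log2 ratios moved by 0.12 for H3K4me3, 0.21 for H3K4me2, -0.11 for H3K4me1, 0.49 for H3K27ac, -0.46 for H3K27me3 and 0.04 for H3K36me3. For peaks, the alternatives were a score of at least 100 and the exchange of the myoblast H3K27ac and H3K27me3 lists.

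The text names the 9 members, the cell type markers and the 5 genes most like the members. It also names Rabep2, Aven and Gm16799 among the genes that overlap a member. Of the 32 other calcium-handling genes it names those called in promoter H3K27ac. The members and lists were chosen with earlier results of these data known. The steps were tested on simulated data. Computations ran in Python 3.11.15 (scipy 1.17.1, numpy 2.4.6, matplotlib 3.10.9, pandas 2.3.3).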

Additional observations from a re-analysis of the deposited data

How the results depend on the processing

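Of 230 counts of members under an alternative, 198 stayed within 1.5 times the count in the report and 32 moved. Promoter H3K4me3 and H3K27ac called higher, and body H3K36me3 called higher, stayed within that range under each alternative run. The counts that moved were these, with the share of all genes given the same call in parentheses. The cause was not tested. With reads not extended, promoter H3K4me1 was called higher at 1 member (5.54%). With 500 bp either side of the TSS, H3K4me3 was lower at 1 (6.01%) and H3K4me2 lower at 3 (26.0%). H3K4me1 higher (3.01%), H3K27me3 lower (2.4%), and H3K36me3 higher (1.67%) and lower (0.568%) were all at 0. With 2 kb downstream, H3K4me2 lower (20.7%) and H3K36me3 lower (3.89%) were at 0 and H3K4me1 lower at 1 (10.3%). There the H3K4me2 ratio of Atp2a2 reversed to 1.15. With windows outside peaks, promoter H3K4me2 was lower at 3 (49.9%), H3K4me1 higher at 1 (2.58%) and H3K36me3 lower at 0 (0.994%). Over the body H3K4me2 (1.48%) and H3K4me1 (3.9%) were each higher at 3. With shared promoters, H3K4me2 (6.53%), H3K27me3 (1.13%) and H3K36me3 (0.779%) lower were at 0. H3K36me3 was higher at 2 (3.93%). Body H3K27me3, scaled by the body reads of the genes with shared promoters, was higher at 0 (1.155%). Thinning gave H3K4me1 lower at 1 (10.6%) and H3K36me3 higher at 0 (1.4%). At 1.5-fold, promoter H3K4me2 was lower at 3 (35.6%) and body H3K4me1 higher at 8 (15.9%). Without the interval, H3K27me3 was higher at 1 (13.1%) and lower at 4 (30.3%), and H3K36me3 higher at 3 (16.4%) and lower at 2 (25.05%). With peaks of score at least 100, a myotube H3K4me1 peak was left at 1 promoter and a myoblast H3K27ac peak at 0. With the lists exchanged the myoblast H3K27ac and H3K27me3 peaks stood at 4 and 1 promoters. For these peak counts no share over all promoters was computed. Of 810 single ratios under an alternative, 732 stayed inside their interval. In 26 of the 810, from 19 ratios, the value crossed 1, and in 1 of these, the H3K4me2 ratio of Atp2a2, the ratio had been called. No paired analysis was possible because there is 1 library per mark and cell type, and for the same reason no replicate could be left out. Depth limits the promoter H3K27me3 and H3K36me3 ratios, which rest on at most 15 reads per library.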
